A study of Mus musculus with 9 samples.

Results

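Interferon-stimulated genes were followed through 3 groups of mouse pancreatic samples on Illumina bead arrays. The set holds 39 named genes, picked by their symbol on the platform, and 34 of them had a probe among the 15967 genes measured. Oas1a, Isg15, Usp18, Ifi44 and Gbp2 had none here and give no value below. Where a gene had several probes, the one with the highest mean over the 9 arrays stood for it.

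Each group had 3 arrays. The induced group was about 5000 GFP-positive cells per sample, obtained by FACS from adult rag-/- pancreas 1 month after an adenovirus called M3 was given. Insulin-positive cells made up 22% of this sort, as its label states. Mice without a Rag gene make no mature T or B lymphocytes. The labels do not explain M3, a name known from work in which transcription factor genes turn acinar cells toward a beta cell state. The islet group was 4 to 5 hand-picked islets per sample from adult pdx-gfp transgenic animals, and the non-islet group was about 10000 cells per sample of the pancreatic tissue left once islets had been taken out of an animal the labels call pdxa-gfp. The labels mention no virus for these groups, and no group is labelled as given a virus without the factors. Virus, factors, mouse line, sorting and time therefore differ together between the induced group and both others, and cannot be told apart. The label does not say which Rag gene was disrupted, and Rag1 and Rag2 were above background on 0 of 3 arrays of the induced group; Rag1 was so on 1 of 3 islet arrays.

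Interferons are secreted when cells sense foreign nucleic acid, and they act on neighbouring cells through surface receptors and the STAT transcription factors. Type I and type III interferons drive a complex that contains STAT2 and IRF9 onto the interferon-stimulated response element (ISRE), whereas interferon gamma acts mainly on the gamma-activated site (GAS). The genes switched on include sensors of viral RNA and DNA, further transcription factors, proteins that block viral replication, large guanosine triphosphatases (GTPases) and chemokines. In the pancreas such a response is best known from viral infection and from inflamed islets.

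The DNA ahead of these genes is shown first, since the ISRE is the element that most of them are known to share. Promoters (250 bases before to 50 bases after the gene start, RefSeq, GRCm38.p6) were found for 29 of the 39 genes, which had 35 promoters in all. The ISRE core was searched as GAAA, any 2 bases and GAAA again, on both strands and with overlapping matches counted, and 16 of the 29 genes held it in a promoter, against 3.99% of all 27025 genes with one (3.44% of all 32851 promoters). The GAS core TTCNNNGAA, a palindrome, was in 8 of the 29 and in 9.55% of all genes (8.3% of promoters). A single form of the NF-kB motif, GGGA, any base and TTTCC, was also searched on both strands and was in 0 of the 29 and in 0.47% of all genes (0.41% of promoters). Other forms of this motif were not searched, so the count does not show that these promoters lack NF-kB sites. Where a promoter lacks these letters, this says only that the window does not hold them. Of 13 genes higher in induced cells than in islets by the call explained below and with a promoter, 7 held the ISRE core, and so did 6 of 12 genes not called. The 7 stretches from called genes follow, 5′ to 3′ on the gene's own strand with the match in capitals (TTTC at the left end of a match means that it lies on the other strand).
Rsad2, chr12:26456548-26456587 (minus strand): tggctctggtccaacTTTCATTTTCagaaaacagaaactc
Cxcl10, chr5:92349078-92349117 (minus strand): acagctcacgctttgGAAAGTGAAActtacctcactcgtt
Ddx58, chr4:40239799-40239838 (minus strand): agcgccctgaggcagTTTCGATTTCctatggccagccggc
Eif2ak2, chr17:78882530-78882569 (minus strand): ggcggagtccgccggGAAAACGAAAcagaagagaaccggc
Stat2, chr10:128270261-128270300 (plus strand): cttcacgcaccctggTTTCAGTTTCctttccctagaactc
Igtp, chr11:58199507-58199546 (plus strand): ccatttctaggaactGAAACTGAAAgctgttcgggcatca
Irgm1, chr11:48871420-48871465 (minus strand): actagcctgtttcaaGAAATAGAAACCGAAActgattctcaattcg

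For comparison, 4 stretches are shown from genes that hold the same core and were not called against islets.
Ifit1, chr19:34640770-34640828 (plus strand): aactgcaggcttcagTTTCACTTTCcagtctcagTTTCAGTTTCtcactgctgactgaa
Ifit3, chr19:34583358-34583397 (plus strand): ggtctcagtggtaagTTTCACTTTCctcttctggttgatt
Oas3, chr5:120777710-120777749 (minus strand): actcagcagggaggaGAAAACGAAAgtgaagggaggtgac
Gbp3, chr3:142559984-142560029 (plus strand): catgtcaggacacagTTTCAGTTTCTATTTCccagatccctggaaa
Among the called genes only Irgm1 held more than 1 match, and among the uncalled genes Ifit1, Ifit3, Bst2 and Gbp3 did. The second match of Ifit3, at -122, lies outside the stretch shown. Of the uncalled genes with the core, Ifih1, Oas3 and Ifit1 were above background on no array and could not have been called. The 2 groups can therefore not be compared fairly by these letters. Matches began at positions from -222 (Stat2) to 32 (Ifih1) relative to the gene start. Irf1, the transcription factor gene with the highest difference from islets among those described below, had 2 promoters. They held no ISRE core, and 1 of them held a GAS core, at position -90. That promoter is shown whole, with the match in capitals, at chr11:53769764-53770063 (plus strand).
Irf1: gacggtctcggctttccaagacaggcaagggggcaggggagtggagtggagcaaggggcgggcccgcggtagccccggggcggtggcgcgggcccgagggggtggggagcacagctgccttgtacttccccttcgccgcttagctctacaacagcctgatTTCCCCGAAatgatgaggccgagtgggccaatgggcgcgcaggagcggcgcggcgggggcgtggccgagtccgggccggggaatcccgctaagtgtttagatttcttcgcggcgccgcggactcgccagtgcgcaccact

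**Figure D1:**
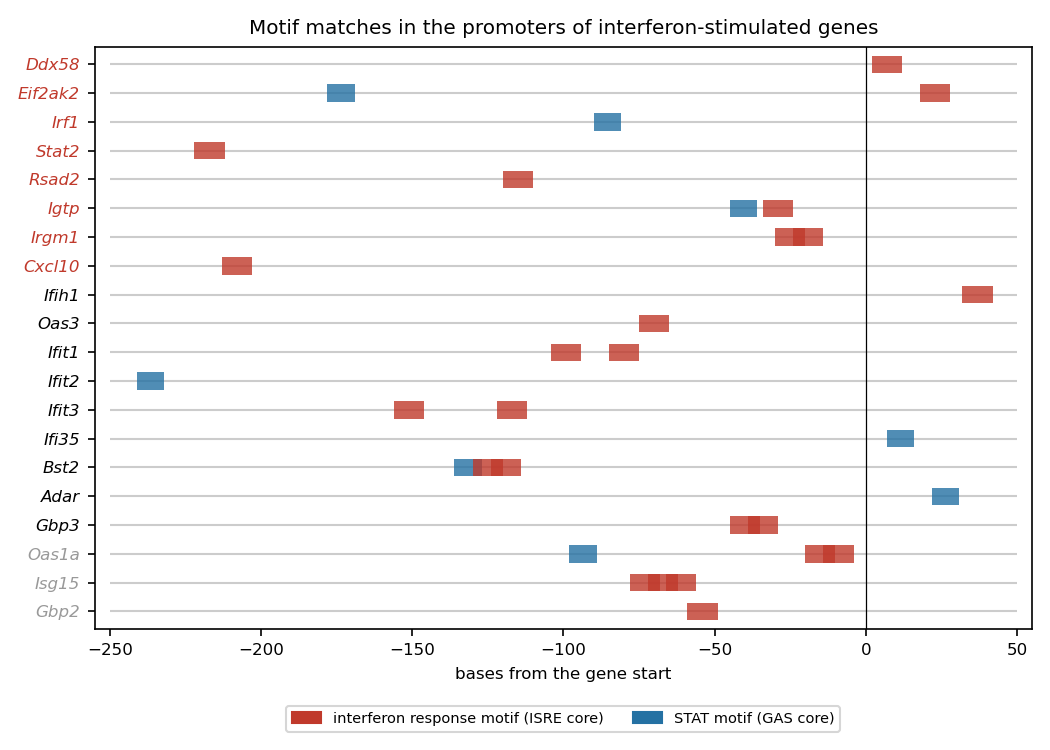
Motif matches along the promoters of the 20 interferon-stimulated genes that held an ISRE core (red) or a GAS core (blue); the horizontal axis is the distance in bases from the gene start. Names in red are genes called higher in induced cells than in islets, names in black are genes not called, and names in grey have no probe; matches lie on both sides of the start in the red and in the black names.

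Signals below are quantile-normalized intensities, background-subtracted by the authors, so that values near or under 0 lie at background. Differences are given on the scale log2(signal + 11.9), which understates the change of dim genes. Folds given as "at least" are ratios of signal + 11.9 too, and are smaller than the ratios of the signals themselves. A gene is called where limma's adjusted p, over all 24613 probes, is under 0.05 and the gene is above background on all 3 arrays of the higher group. Arrays are limited in precision by their number, and nothing states that the 3 repeats within a group are separate animals. The p-values therefore rest on a spread between samples that may be technical. From 13476 to 13763 probes were above background on the induced and islet arrays and from 9210 to 9933 on the non-islet arrays, so fewer dim genes could be read in the non-islet group. Probes for acinar enzymes were among the brightest in all 3 groups. Ctrb1, a chymotrypsinogen gene, for example had normalized signals of 13076, 12646 and 12005 on the induced arrays, 12646, 12268 and 11844 on the islet arrays and 11844, 12143 and 12268 on the non-islet arrays. The insulin gene Ins2 had 9127, 7154 and 5206 on the induced arrays, 12356, 10767 and 10431 on the islet arrays and 164, 163 and 94.9 on the non-islet arrays. Ctrb1 lay near the top of the range on every array and cannot rank the groups. Prss2, a trypsinogen gene, read 2007, 1877 and 2379 on the induced arrays, 1747, 1649.6 and 1617 on the islet arrays and 9949.6, 8975 and 8573 on the non-islet arrays. Ptf1a, an acinar transcription factor gene, read 271, 313 and 283, 41.9, 49.2 and 42.3 and 1565, 1450.4 and 1649.6 in the same order. Islets thus carried their defining transcript, and acinar transcripts were present in every group. Prss2 and Ptf1a were highest in non-islet cells, but the acinar genes did not all rank the groups so. Of 9 measured, 0 were called higher and 3 lower in induced than in non-islet cells (23.8% and 20.1% of all genes). In islets 0 were called higher and 2 lower than in non-islet cells (23.9% and 19.2%). Cpa1 and Cela3b had their lowest means in non-islet cells (10844 and 10617) and were not called. In these bulk samples, more cells with a transcript and more transcript per cell cannot be told apart.

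Induced cells had higher signals than islets for many of the interferon-stimulated genes measured, with the transcription factors, Oas2, Rsad2 and Cxcl10 among them and the Ifit genes not. Of 34 genes, 19 were called higher and 0 lower (0 at an unadjusted p under 0.05 as well), while 13.2% of all genes measured were called higher and 14.8% lower. The median log2 difference was 0.56 over the 34 genes and -0.01 over all genes. Above background on all 3 arrays were 28 of the 34 genes in induced cells, 22 in islets and 11 in non-islet cells, and 6 genes were so in induced cells only. Of all 24613 probes, from 9210 to 9933 were above background on each non-islet array and from 13476 to 13763 on each of the others. Zbp1 is among the 6, though its non-islet signals (4.21, 4.46 and 4.03) overlapped its induced ones, under a higher background limit there. By role, the calls took in 2 of 5 sensors, 3 of 4 genes of the 2-5A synthetase family, 5 of 5 transcription factors and regulators, 4 of 11 effectors and modifiers, 4 of 7 GTPases and 1 of 2 chemokines. On the log2(signal + 11.9) scale, 12 of the 34 were called and higher by 1 or more, against 4.83% of all genes. Other scalings (values as deposited, a common median, equal noise) gave 19, 22 and 23 higher and 2, 0 and 0 lower. Of all genes, 14.6%, 22.2% and 23.5% were called higher in these settings and 20.5%, 11% and 13.8% lower. The share of all called genes that were higher was 47.2% in the main setting and 41.5%, 67.0% and 62.9% in these.

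**Figure D2:**
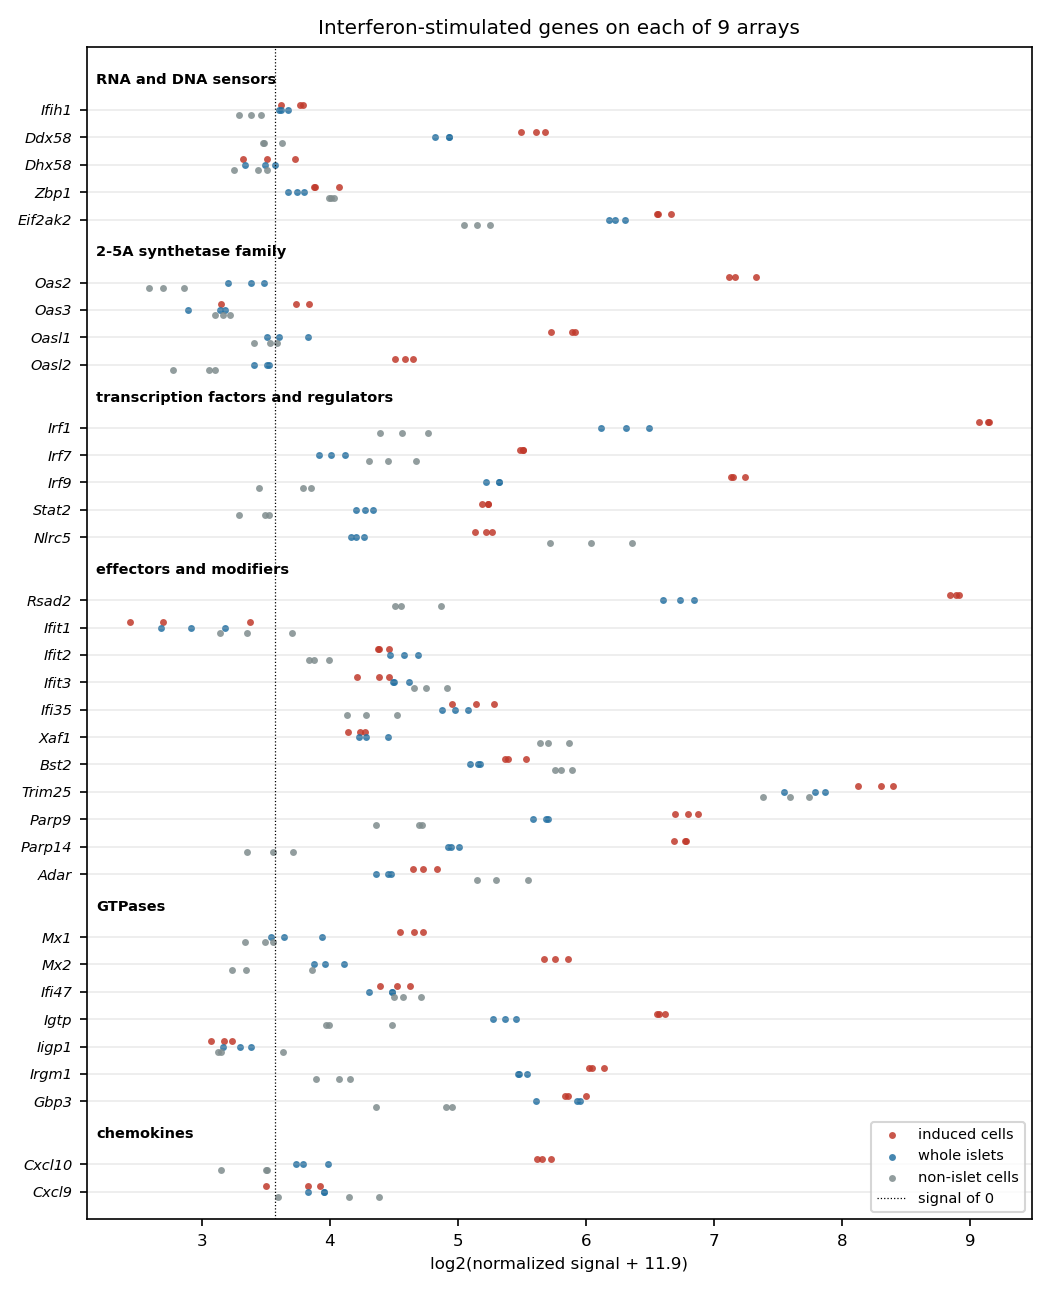
Each point is the log2 of the normalized signal plus 11.9 on 1 array, for the 34 genes with a probe, ordered by role; the dotted line marks a signal of 0. The induced points (red) stand clear to the right of both other groups for genes such as Oas2, Irf1, Irf9, Rsad2 and Cxcl10, while all 9 points of Dhx58, Ifit1 and Iigp1 lie around or left of the dotted line.

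Among the sensors, Ddx58 and Eif2ak2 were the genes called. Ddx58 encodes RIG-I, a cytosolic detector of viral RNA ends, and had signals of 37.0, 33.2 and 39.3 in induced cells, 16.4, 18.6 and 18.5 in islets and -0.769, -0.728 and 0.445 in non-islet cells. The induced arrays lay above the islet arrays without overlap, by 0.70 (SE 0.10, adjusted p = 0.000258) on the log2 scale. Eif2ak2, the gene of the RNA-activated kinase PKR that halts translation, had 82.2, 89.9 and 82.5 against 67.3, 60.5 and 62.9 in islets. The ranges did not overlap, the difference was 0.36 (SE 0.10, adjusted p = 0.0226), and the call was lost without induced array 1, 2 or 3 or islet array 2 or 3 (adjusted p = 0.0545, 0.0908, 0.0515, 0.0853 and 0.0632). Ifih1, which encodes the RNA sensor MDA5, and Dhx58, which encodes the related helicase LGP2, were above background on 0 of 9 arrays. Zbp1, a sensor of left-handed nucleic acid that can start cell death, was faint. It was above background on all 3 induced arrays (4.89, 2.85 and 2.78) and on 0 islet arrays (0.824, 2.03 and 1.5). It was so on 0 non-islet arrays too (4.21, 4.46 and 4.03), where the background limit was higher. Against islets it was not called (0.20, SE 0.10, adjusted p = 0.191).

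Active enzymes of the 2-5A synthetase family make the short oligoadenylates that activate the ribonuclease RNase L. The genes grouped here by family need not all encode such an enzyme. Oas2 had the largest fitted difference from islets of the 34 genes, against a group in which it was at background. Its signals were 149, 131 and 127 in induced cells, -2.71, -1.48 and -0.724 in islets and -4.64, -5.91 and -5.43 in non-islet cells, with no array of either other group above background. As the lower side is only a background limit there, Oas2 was at least 10.1-fold higher than in islets (adjusted p = 6.59e-10) and at least 7.01-fold higher than in non-islet cells (adjusted p = 5.94e-11). Oasl1, in the mouse known as a brake on Irf7 translation, had 47.6, 48.4 and 41.1 in induced cells and 0.239, 2.29 and -0.552 in islets, at least 3.96-fold higher (adjusted p = 4.55e-08). A second probe of Oasl1 was dimmer and also higher (7.23, 7.41 and 10.1 against 1.48, 0.482 and 1.27, at least 1.39-fold, adjusted p = 0.00281). Oasl2 read 12.2, 13.2 and 10.9 in induced cells and was at background in islets (-1.31, -0.404 and -0.519), a rise of at least 1.651-fold (adjusted p = 1.41e-05). Oas3 was different: neither of its 2 probes was above background on any array, and its brighter probe read 1.39, 2.37 and -3.03 in induced cells.

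All 5 transcription factors and regulators were called higher in induced cells than in islets. Irf1, an early activator of interferon and class I antigen genes, had 552, 556 and 527 in induced cells, 78.2, 67.7 and 57.6 in islets and 11.8, 15.3 and 9.07 in non-islet cells. The groups lay far apart without overlap, with an induced minus islet difference of 2.81 (SE 0.13, adjusted p = 1.34e-08). The 3 other probes of Irf1 were dimmer and were called as well, at 1.84, 1.13 and 1.14. Irf9, the DNA-binding part of the complex that reads the ISRE, had 129, 130.4 and 139.8 against 28.2, 25.4 and 28.2 in islets (1.89, SE 0.12, adjusted p = 2.26e-07). Stat2, its partner in that complex, was dimmer, with 24.5, 25.7 and 25.7 against 8.26, 6.50 and 7.41 (0.95, SE 0.10, adjusted p = 2.3e-05). Irf7, which amplifies type I interferon production, stood at 33.7, 33.6 and 32.8 in induced cells and 4.16, 3.19 and 5.47 in islets (1.49, SE 0.12, adjusted p = 1.25e-06). Irf7 was one of the genes whose islet arrays lay below the non-islet arrays (7.87, 10.1 and 13.7). Nlrc5, the activator of class I antigen presentation genes, had 25.3, 26.5 and 23.2 in induced cells and 7.33, 6.08 and 6.48 in islets (0.99, SE 0.15, adjusted p = 0.000244).

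The effectors and modifiers split. Rsad2 encodes viperin, an enzyme whose product ends viral RNA chains, and had 448, 462 and 469.8 in induced cells, 94.9, 85.1 and 103 in islets and 17.4, 11.6 and 10.9 in non-islet cells. The 3 groups formed 3 separate levels, and induced cells exceeded islets by 2.15 (SE 0.12, adjusted p = 6.97e-08). Parp14, the gene of an ADP-ribosyltransferase, read 98.4, 97.8 and 91.3 in induced cells and 18.9, 20.2 and 18.4 in islets, a difference of 1.79 (SE 0.11, adjusted p = 1.77e-07). Parp9, of the same family, read 91.7, 105 and 99.1 in induced cells and 36.3, 39.7 and 40.3 in islets, a difference of 1.13 (SE 0.12, adjusted p = 1.79e-05). For both genes every induced array stood above every islet array. Trim25, the ubiquitin ligase that helps activate RIG-I, had 305, 325 and 268 against 175, 209 and 222 (0.54, SE 0.13, adjusted p = 0.00863).

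The remaining 7 effectors with a probe were not called against islets. The Ifit proteins bind viral RNA that lacks a host cap, and none of the 3 Ifit genes was higher in induced cells. Ifit1 was above background on 0 of 9 arrays (-6.51, -1.51 and -5.43 in induced cells). Ifit2 read 8.82, 10.1 and 8.96 in induced cells and 12, 10.3 and 13.9 in islets, so that the induced arrays were the lower ones (-0.17, SE 0.10, adjusted p = 0.293). Ifit3 read 9.0, 6.60 and 10.1 and 12.6, 10.6 and 10.7 (-0.18, SE 0.11, adjusted p = 0.302), also below islets, and its second probe was above background on 0 of 9 arrays. In the values as deposited, without quantile normalization, both were called lower than in islets (-0.17 each, adjusted p = 0.0267 for Ifit2 and 0.0299 for Ifit3). Ifi35 (0.15, SE 0.13, adjusted p = 0.523) and Xaf1, a gene of a protein that promotes apoptosis (-0.11, SE 0.11, adjusted p = 0.587), had overlapping ranges in induced cells and islets. Bst2, which encodes tetherin, a protein that holds budding viruses at the cell surface, had 34.3, 29.4 and 30.0 against 24.1, 22.2 and 23.8. Its ranges did not overlap, but the difference missed the threshold (0.29, SE 0.10, adjusted p = 0.055). Adar, the gene of an RNA-editing enzyme, was similar in this respect, with 13.2, 16.6 and 14.6 against 10.4, 8.67 and 9.96 (0.31, SE 0.12, adjusted p = 0.0909).

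The GTPases split likewise. Mx2, of the dynamin-like antiviral proteins, had 46.3, 42.4 and 39.2 in induced cells and 5.37, 2.80 and 3.67 in islets (1.78, SE 0.15, adjusted p = 2.84e-06). Mx1 was fainter, with 11.6, 13.4 and 14.5 against 3.45, -0.261 and 0.578 (0.94, SE 0.13, adjusted p = 0.000119), and its second probe was called too (at least 1.38-fold, adjusted p = 6.02e-05). RefSeq lists both Mx1 and Mx2 of the reference mouse genome (GRCm38.p6) as transcribed pseudogenes, and the labels name no inbred strain. Igtp and Irgm1 encode immunity-related GTPases that act in the defence against intracellular microbes. Igtp read 86.4, 82.1 and 83.4 in induced cells and 26.8, 32.0 and 29.3 in islets, a difference of 1.22 (SE 0.14, adjusted p = 3.06e-05). Irgm1 read 58.6, 53.1 and 54.2 in induced cells and 32.8, 32.5 and 34.6 in islets, a difference of 0.57 (SE 0.11, adjusted p = 0.00137), again without overlap. A second probe of Irgm1 was above background on no array. Ifi47, of the same GTPase family, was near 11.1, 9.05 and 12.7 in induced cells and 10.5, 7.88 and 10.6 in islets, with overlapping ranges (0.09, SE 0.11, adjusted p = 0.69). Iigp1, whose product disrupts parasite vacuoles, was above background on 0 of 9 arrays with both of its probes. Gbp3, a guanylate-binding protein gene, read 45.4, 46.3 and 52.1 in induced cells and 50.2, 49.0 and 37.1 in islets and was not called (0.07, SE 0.16, adjusted p = 0.847).

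The chemokines Cxcl9 and Cxcl10 both attract lymphocytes through the receptor CXCR3. Cxcl10 had 37.3, 38.6 and 41.0 in induced cells, 1.41, 1.91 and 3.89 in islets and -0.511, -3.02 and -0.574 in non-islet cells, a difference from islets of 1.83 (SE 0.12, adjusted p = 3.4e-07). Cxcl9 read 2.28, 3.24 and -0.581 in induced cells, 2.29, 3.62 and 3.59 in islets and 5.82, 0.160 and 8.96 in non-islet cells. It was above background on 1, 2 and 1 of 3 arrays in this order and was not called (-0.16, SE 0.18, adjusted p = 0.628). Cxcl9 is known as a gene that answers mainly to interferon gamma.

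**Figure D3:**
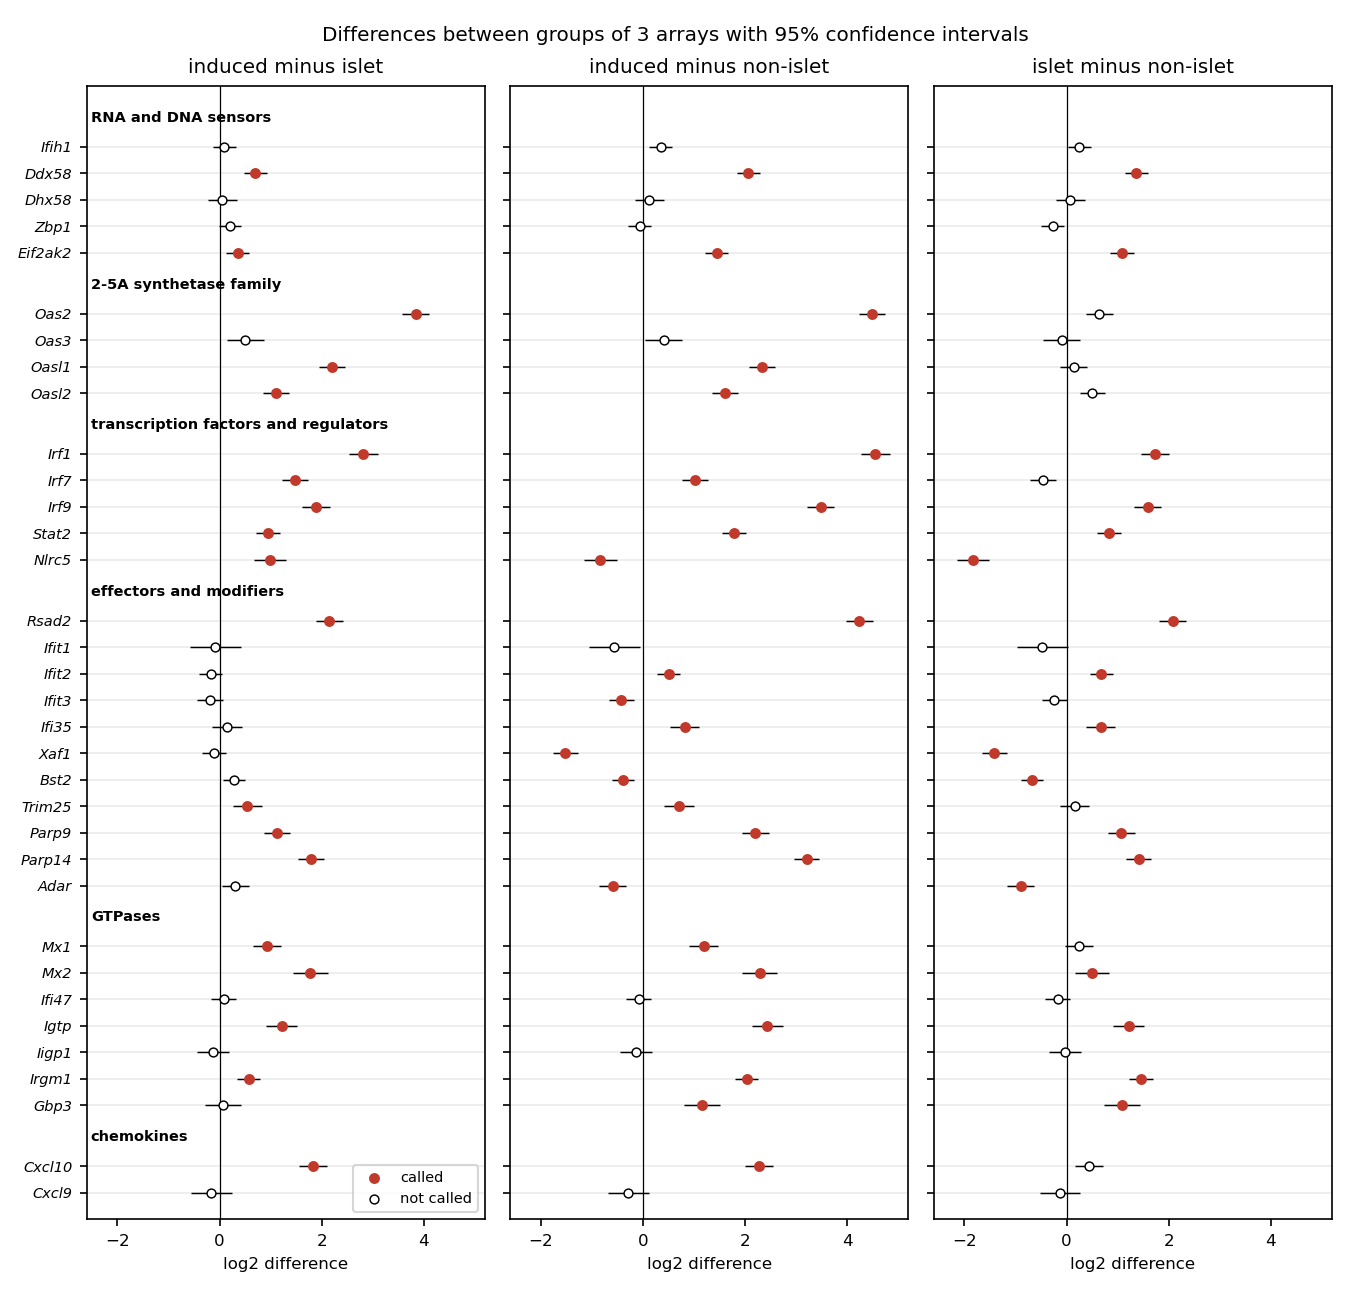
Log2 differences for the 34 genes with a probe in the 3 comparisons of groups, on the log2(signal + 11.9) scale, with 95% confidence intervals from limma (3 arrays per group); filled points were called and open points were not. In the left panel 19 filled points lie to the right of 0 and none to the left, and in the middle and right panels 5 and 4 filled points lie to the left of 0.

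Against non-islet cells, which are mainly exocrine tissue, 21 of 34 genes were called higher in induced cells and 5 lower, where 23.8% of all genes were called higher and 20.1% lower. This comparison shares the induced arrays with the one above. The median log2 difference was 1.09 over the 34 genes and -0.09 over all genes. Irf1 and Rsad2, measured in both groups, differed by 4.54 and 4.23. Irf9 and Parp14 were above background on no non-islet array and at least 6.89-fold and 5.12-fold higher in induced cells (adjusted p = 4.41e-10 and 4.42e-10). Genes not called against islets that were higher than in non-islet cells were Gbp3 (1.16, SE 0.16, adjusted p = 6.37e-05), Ifi35 (0.81, SE 0.13, adjusted p = 0.00022) and Ifit2, at least 1.01-fold (adjusted p = 0.00142).

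The 5 genes called lower than in non-islet cells were Xaf1, Nlrc5, Adar, Ifit3 and Bst2. Xaf1 read 40.2, 46.5 and 38.1 in non-islet cells against 5.71, 7.43 and 6.88 in induced cells (-1.52, SE 0.11, adjusted p = 2.19e-07), and Nlrc5 read 53.8, 70.5 and 40.8 against 25.3, 26.5 and 23.2 (-0.83, SE 0.15, adjusted p = 0.000399). Adar, Ifit3 and Bst2 stood at -0.60, -0.42 and -0.39. Most of these calls depended on how arrays were made comparable. The brightest deposited value was from 24038 to 25197 on the non-islet arrays and from 6078 to 8363 on the others, with the same mean intensity on all, and the noise SD was from 4.40 to 4.82 against 1.48 to 2.05; the part of these in the calls was not tested. In the values as deposited, Xaf1 was still lower (-0.49, adjusted p = 2.55e-06), Nlrc5, Adar and Ifit3 were not called (-0.0031, -0.049 and -0.094), and Bst2 was higher (0.28, adjusted p = 0.000585). This left 22 higher and 1 lower, counts that scaling to a common median gave too. Scaling to equal noise gave 26 higher and 0 lower. Of all genes, 36.1% were called higher in the values as deposited, about as many with a common median and 48.7% with equal noise. The main setting gave 23.8%. Called lower were 12.2%, 12.4% and 2.23% of all genes in the same order. The median over all genes moved with the scaling, from -0.09 to 0.12, 0.13 and 0.30 in these 3 settings, and the share of all called genes that were higher moved from 54.2% to 74.7%, 74.3% and 95.6%. Among the 34 genes that share was 80.8% and moved to 95.7%, 95.7% and 100%. The median of the 34 genes stayed above that of all genes in each, at 0.80, 0.84 and 1.60.

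Islets and non-islet cells, neither labelled as given virus, differed as well. Here 14 of 34 genes were called higher in islets and 4 lower, where 23.9% and 19.2% of all genes were called, and the median was 0.35 against -0.08 over all genes. Rsad2 and Irf1 were higher in islets by 2.08 and 1.73. Irf9, Irgm1, Parp14 and Ddx58, above background on no non-islet array, were at least 1.86, 2.15, 1.48 and 1.42 times as high. The order for these 6 genes was thus induced cells, islets and non-islet cells, with no overlap between neighbours. Oas2, Oasl1, Oasl2, Mx1 and Cxcl10 were at background on at least 2 of 3 islet arrays and on every non-islet array. The genes lower in islets were Nlrc5, Xaf1, Adar and Bst2 (-1.83, -1.42, -0.90 and -0.68). At equal noise the sign turned for Adar and Bst2 (0.25 and 0.82), and for Bst2 in the values as deposited too (0.13). The share of all called genes that were higher in islets was 55.5% here, and 78.3%, 71.0% and 94.8% in the values as deposited, with a common median and with equal noise. Among the 34 genes that share was 77.8%, and 84.2%, 83.3% and 95% in these, so at equal noise it lay beside that of all genes. The call of Mx2 (0.50, SE 0.15, adjusted p = 0.0168) was lost without islet array 1 or non-islet array 1 or 2 (adjusted p = 0.0682, 0.0588 and 0.0503).

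The other genes of the interferon pathway were taken list by list. The 9 measured interferon genes were the type I genes Ifnb1, Ifna2, Ifna4, Ifna9, Ifna11, Ifne and Ifnk, the type II gene Ifng and the type III gene Ifnl3. None was above background on all 3 arrays of any group, so none could be called in any comparison. At limma's unadjusted p under 0.05, 0 differed between induced cells and islets. Against non-islet cells 3 were lower in induced cells and 2 in islets, and 0 were higher in either. By adjusted p alone, 1 was lower than in non-islet cells in induced cells and 1 in islets. Ifnb1 read 0.616, -1.75 and 0.216 in induced cells. A level of 0 and a level under background cannot be told apart.

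Of 9 receptor and kinase genes, 3 were higher in induced cells than in islets and 0 lower (0 at an unadjusted p under 0.05), beside 13.2% and 14.8% of all genes. Ifnlr1, the chain specific to the receptor for type III interferon, had 99.5, 92.2 and 81.2 in induced cells, 8.32, 10.6 and 10.1 in islets and 6.76, 5.02 and 4.49 in non-islet cells, with the induced arrays far above both (2.25, SE 0.11, adjusted p = 2.3e-08 against islets). Il10rb, the other chain of that receptor, had 79.0, 79.5 and 77.9 in induced cells and 24.6, 26.7 and 26.3 in islets (1.26, SE 0.0941, adjusted p = 7.55e-07). It was highest in non-islet cells (148, 152 and 156). Ifngr2, a chain of the interferon gamma receptor, read 174, 179 and 169 against 49.7, 52.1 and 53.0 (1.55, SE 0.0964, adjusted p = 1.61e-07). The 2 chains of the type I receptor were faint, with Ifnar1 above background on 1 of 9 arrays and Ifnar2 at 4.83, 3.60 and 5.16 in induced cells and 6.34, 7.45 and 8.48 in islets (-0.23, SE 0.13, adjusted p = 0.259).

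Of 13 genes that relay the signal from the sensors, 3 were higher and 1 was lower than in islets, beside 13.2% and 14.8% of all genes. The higher ones were Tbk1, a kinase that activates Irf3, Myd88, an adaptor of Toll-like receptors, and Irf3 itself, at 0.38, 0.37 and 0.35 (adjusted p = 0.0289, 0.0416 and 0.0337). The lower one was Cgas, the cytosolic DNA sensor, with 1.5, 2.78 and 3.20 in induced cells and 19.1, 20.5 and 21.9 in islets (-1.17, SE 0.12, adjusted p = 1.72e-05).

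Of 11 feedback inhibitors, 3 were higher and 3 lower than in islets, beside 13.2% and 14.8% of all genes. Nfkbia and Tnfaip3 are inhibitors of NF-kB and known targets of it. Nfkbia read 251, 235 and 238 in induced cells and 19.4, 18.7 and 27.6 in islets (2.91, SE 0.19, adjusted p = 2.59e-07). Tnfaip3 read 233, 228 and 229 in induced cells and 21.0, 18.9 and 22.3 in islets (2.89, SE 0.14, adjusted p = 1.73e-08). Trex1, an exonuclease that clears cytosolic DNA, was higher by 0.77 (SE 0.12, adjusted p = 0.000347). Socs1, the main inhibitor of the kinases under the interferon receptors, was lower in induced cells, with 24.0, 21.1 and 24.6 against 37.4, 40.8 and 36.8 in islets (-0.52, SE 0.10, adjusted p = 0.00238) and 103, 89.0 and 95.5 in non-islet cells. Ptpn11 and Cyld were the other lower genes (-0.52 and -0.37, adjusted p = 0.00656 and 0.0226). Against non-islet cells, 7 of the 11 were higher and 1, Socs1, was lower, beside 23.8% and 20.1% of all genes, and Socs3, another inhibitor of these kinases, differed by 3.21 there and by 0.19 (SE 0.15, adjusted p = 0.436) against islets, where it was not called.

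A list of 54 further interferon-stimulated genes, of which 43 had a probe, gave 20 calls for higher signals in induced cells and 5 for lower ones against islets, beside 13.2% and 14.8% of all genes. The median was 0.27, and -0.01 over all genes. The largest rises were in Lgals9, the galectin-9 gene (3.26, SE 0.10, adjusted p = 6.53e-10), Ifi27 (2.38, SE 0.0978, adjusted p = 5.34e-09), Oas1g, a further synthetase gene (2.14, SE 0.11, adjusted p = 4.6e-08), Irgm2 (1.48), Lgals3bp (1.48) and Dtx3l, a partner of Parp9 (1.41). Lgals9 read 269, 276 and 263 in induced cells, 18.3, 17.2 and 16.5 in islets and 66.5, 62.6 and 75.0 in non-islet cells. The 5 lower genes were Cmpk2 (-1.16), the checkpoint ligand gene Cd274 (-0.72) and Isg20 (-0.40), and Irf8 and Aif1, both at background in induced cells and at least 1.25-fold and 1.32-fold lower. Irf8 and Aif1 are also genes of myeloid cells. Against non-islet cells, where 23.8% and 20.1% of all genes were called, 21 of the 43 were higher and 1, Slfn5, was lower (-1.71, SE 0.11, adjusted p = 1.08e-07), and Lgals3bp was higher by 3.72. Samd9l and Irgm2, at background in non-islet cells, were at least 14.7-fold and 5.46-fold higher.

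**Figure D4:**
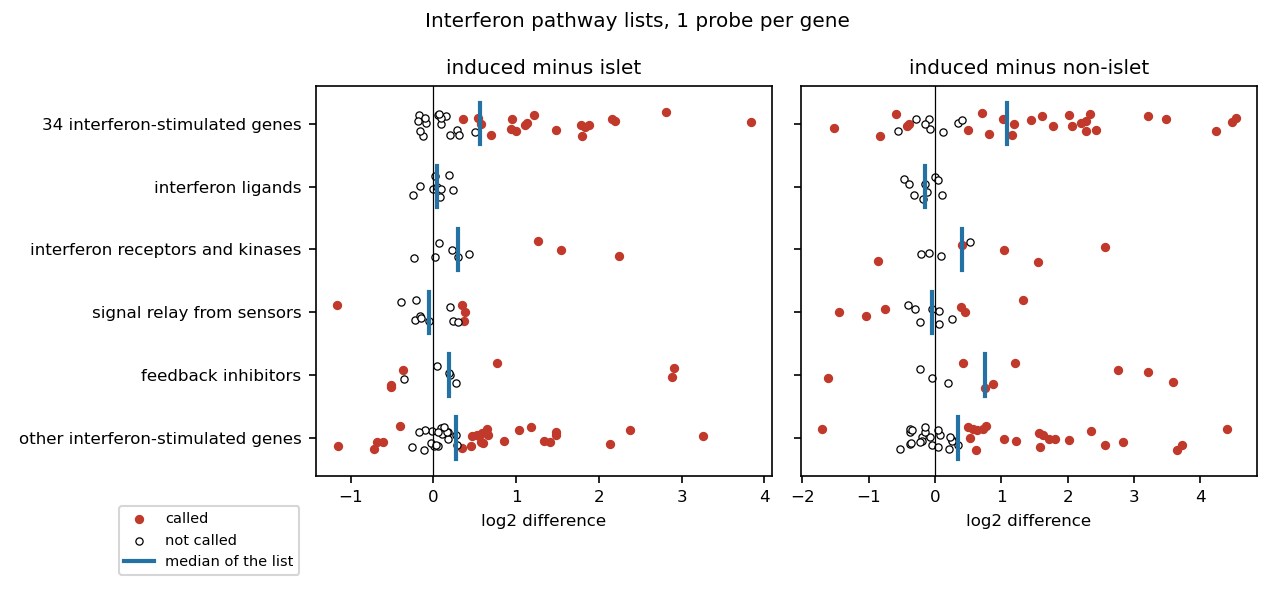
Log2 differences on the log2(signal + 11.9) scale for the 34 interferon-stimulated genes and for the 5 further pathway lists, with 1 point per gene, filled where called, and a bar at each list's median. The ligands, at background throughout, show no filled point, while the receptor and feedback lists have a few filled points far to the right.

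Several of these genes are neighbours on their chromosome, and neighbours did not always go the same way. Rsad2 and Cmpk2 adjoin each other. Rsad2 was higher in induced cells than in islets, whereas Cmpk2, a nucleotide kinase gene, read 54.2, 57.7 and 49.7 in induced cells, 134, 138 and 132 in islets and 66.8, 59.3 and 63.1 in non-islet cells, and was lower than in islets (-1.16, SE 0.10, adjusted p = 2.89e-06). Parp14, Dtx3l and Parp9 lie in a row and all 3 were higher. In the Oas cluster, Oas2 and Oas1g were higher while Oas3, which lies between them, was at background. The genes Ifnar2, Il10rb, Ifnar1 and Ifngr2 lie side by side, and only Il10rb and Ifngr2 of these 4 were called against islets. Differences between neighbours were not tested as such.

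Markers of other cells that can carry interferon-stimulated transcripts moved between the groups too. Of 12 endothelial genes, 11 were above background on all 3 arrays in islets and 5 in induced cells, and their summed signal ranged from 2241 to 2282 in islets, from 43.5 to 58.0 in induced cells and from 329 to 385 in non-islet cells. Esm1, Tek and Tie1 were at background in induced and in non-islet cells, and Kdr in islets and in non-islet cells. Of 16 macrophage and myeloid genes, 8 were above background on all 3 arrays in induced cells, 10 in islets and 2 in non-islet cells, and their sums ranged from 167 to 191, from 329.5 to 364 and from 80.5 to 117. Of the 16, 3 were called higher in induced cells than in islets and 8 lower, beside 13.2% and 14.8% of all genes. The higher ones were Cd14 (1.68), Fcer1g (at least 1.46-fold) and Mrc1 (0.53). Ptprc, the pan-leukocyte gene, Itgam and Itgax were above background on no array. Fcgr3 and Tyrobp were at background in induced and in non-islet cells, and Fcer1g and Lyz1 in islets and in non-islet cells. The T cell genes Cd3e, Cd3g and Cd4 were above background on 0 of 9 arrays and 1 of 7 lymphocyte genes (Ms4a1) was above background on all 3 induced arrays. In islets 4 of the 7 were so on all 3 arrays, and in non-islet cells 1. Of 8 natural killer cell genes, 6 were above background on no induced array. The same 6 were so on no islet array, and 5 of the 8 on no non-islet array. For plasmacytoid dendritic cells, 4 of 6 listed genes were above background on all 3 arrays in induced cells, 5 in islets and 3 in non-islet cells. Ccr9 was so in no group, and Irf8 in islets only. The sums ranged from 255 to 266 in induced cells, from 455 to 477 in islets and from 366 to 450 in non-islet cells. This list contains Bst2. The summed signals of the endothelial, myeloid, lymphocyte and plasmacytoid lists were lower on every induced array than on every islet array, and those of the natural killer list overlapped (from 0.312 to 8.29 in induced cells, from 4.97 to 21.0 in islets and from 60.5 to 70.4 in non-islet cells). The lymphocyte sums ranged from -4.62 to 2.87, from 13.4 to 17.5 and from 45.9 to 56.1 in the same order. On the induced arrays 5 of 7 lymphocyte and 6 of 8 natural killer genes were never above background. Their sums there are thus made up mostly of background values. The part of such cells in the differences was not tested.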

How the data were processed

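RNA of 9 samples had been extracted with Trizol, amplified, labelled with biotin and hybridized to Illumina bead arrays, per the labels' protocols. BeadStudio produced the intensity values that the authors deposited, per the submitters' processing notes; its version and settings are not given in the sources used here. They are linear, background had been subtracted (24.7% to 35.0% of values were below 0) and each array had the same mean of 74.2. A further table of 36 columns, named by slide position only, could not be tied to samples and was not used. Probes were named from GEO's platform annotation, 20984 of 24613 with 1 symbol.

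Values were quantile-normalized, 11.9 was added so that the lowest became 1, and log2 was taken. The noise SD of an array was estimated from its values below 0, and a probe above 1.645 noise SD counted as above background. Groups were compared with limma 3.58.1 in R 4.3.3 (1 mean per group, 9 arrays, 6 residual degrees of freedom, two-sided, Benjamini-Hochberg). All probes were fitted without a filter, so that each gene had a test. At-least folds set the bright group's mean against the background limit of the dim group, both taken on the log2(signal + 11.9) scale. They are therefore ratios of signal + 11.9 and not of signal. The procedure was tested on simulated data.

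The genes and lists were chosen with earlier results of these data known, so lists are described by counts and medians only. Named genes were all 39, the up to 6 called genes of each other list with the largest differences, and those making up counts of 5 or fewer; further marker genes were named after their values were seen. Alternatives were other offsets, other scalings, filters, variance models, a fold limit, the 2 groups alone, a replicate block, the mean of probes, and leaving out each array.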

Additional observations from a re-analysis of the deposited data

How the results depend on the processing

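Of 776 single-gene values under the alternatives for induced minus islet, 739 kept their direction and their side of the threshold, 25 passed it newly, 12 no longer did and 0 turned. For induced minus non-islet 753 kept both and 7 turned, and for islet minus non-islet 750 kept both and 5 turned. With equal noise, induced minus non-islet turned to 0.64 for Adar, 1.27 for Bst2, 0.61 for Ifi47, 0.38 for Ifit3 and 0.91 for Nlrc5, and islet minus non-islet to 0.25 for Adar, 0.82 for Bst2, 0.48 for Ifi47 and 0.53 for Ifit3. Bst2 also turned as deposited (0.28, and 0.13 for islets) and with a common median (0.28). The causes were not tested.

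Counts for the 34 genes moved as follows. A limit of 2-fold was taken on signal + 11.9 and so is stricter for dim genes than on signal. With it, 12 were higher against islets (4.83% of all genes) and 1 was lower than in non-islet cells (10.6%). In islets, 2 were lower than in non-islet cells (9.83%). As deposited, 2 were lower than in islets (20.5% of all genes) and 1 lower than in non-islet cells (12.2%). With a common median 1 (12.4% of all genes), and with equal noise 0 (2.23%), were lower than in non-islet cells. With equal noise 1 was lower in islets than in non-islet cells (2.69%). Leaving out 1 array in turn gave from 18 to 21 higher and 0 lower against islets (11.1% to 14.3% and 12.1% to 16.3% of all genes). Against non-islet cells it gave 21 higher and 5 lower (22.3% to 23.9% and 19.3% to 21%). For islets against non-islet cells it gave 13 to 14 higher and 4 to 5 lower (22% to 24.1% and 18% to 19.8%).

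The median against islets was 0.32 with an offset of 50, 0.41 as deposited, 0.86 with equal noise and 0.94 over the 28 genes that a filter on dim probes kept, and from 0.52 to 0.63 without 1 array. Against non-islet cells it was 0.93 and 0.45 with offsets of 16 and 50, 0.80 as deposited, 0.84 with a common median, 1.60 with equal noise, 1.53 with the filter and 1.00 over the mean of probes, and from 1.03 to 1.34 without 1 array, the highest without non-islet array 3. For islets against non-islet cells it was 0.10 with an offset of 50, 0.48 with equal noise and 0.57 with the filter, and from 0.27 to 0.49 without 1 array, again highest without non-islet array 3.

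Of the 85 other pathway genes, 29 were higher and 9 lower against islets (13.2% and 14.8% of all genes). At 2-fold or more these were 14 and 2 (4.83% and 3.83%), and without 1 array 21 to 32 and 8 to 10 (11.1% to 14.3% and 12.1% to 16.3%). Against non-islet cells 35 were higher and 6 lower (23.8% and 20.1% of all genes). Without 1 array these were 33 to 36 and 6 to 7 (22.3% to 23.9% and 19.3% to 21%). There, 22 were higher at 2-fold or more (11.8% of all genes). With equal noise 1 was lower (2.23%), and by adjusted p alone 13 were (30%). For islets against non-islet cells 26 were higher and 14 lower (23.9% and 19.2% of all genes). Without 1 array these were 25 to 28 and 12 to 14 (22% to 24.1% and 18% to 19.8%). Equal noise gave 50 and 1 (48.6% and 2.69% of all genes). At 2-fold or more there were 11 and 8 (11.3% and 9.83%), and as deposited 6 were lower (10.8%).

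A fit with the replicate number as a block gave 19 higher and 0 lower, 21 and 5, and 14 and 4, and changed no count of the 34 genes. The shares of all genes were 12.6% and 14.1%, 23.6% and 19.9%, and 23.7% and 18.8% in the same order. Same-numbered arrays of different groups correlated at -0.12 to 0.19 in their deviations from group means. Arrays with different numbers correlated at -0.22 to 0.21. With 3 arrays per group this check cannot decide whether the numbers pair samples. Genes at background in every group, Ifih1, Dhx58, Oas3, Ifit1 and Iigp1, were not measurable at this signal over background.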
